A study of Solanum lycopersicum with 30 samples.

Results

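The leaf response of the genes METK1 and ARD to tobacco mosaic virus (TMV) was followed in tomato (Solanum lycopersicum) on 30 two-colour cDNA arrays. METK1 is the symbol of an S-adenosylmethionine synthetase and ARD that of an acireductone dioxygenase. They were taken as every row of the array whose only symbol was METK1 or ARD, which gave 9 clones of METK1 and 1 clone of ARD, 10 of the 15360 clones on the array and 2 of its 430 genes with a symbol. Each clone was printed as a pair of spots, whose values were averaged, and the METK1 clones were then averaged to a gene value on each array.

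S-adenosylmethionine synthetase joins methionine and ATP to S-adenosylmethionine, the methyl donor of most methylation reactions. In plants S-adenosylmethionine is also the precursor of ethylene, a hormone of defence and senescence, and of the polyamines spermidine and spermine. Making ethylene or polyamines leaves the sulphur of methionine in methylthioadenosine, and the methionine salvage (Yang) cycle returns it to methionine. Acireductone dioxygenase acts late in that cycle and forms the keto acid that is converted to methionine.

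The plants, per the labels, were the mutant sun1-1, which carries N and is more susceptible to TMV, a resistant line with N, and a susceptible line (n). N is a tobacco gene for resistance to TMV. They were 28 to 35 days old and kept at 25 °C in a cycle of 16 h light and 8 h dark. Leaves were collected 3, 9 and 27 h after treatment with sap carrying TMV or with mock sap. Each array set leaf RNA of a TMV-treated plant, labelled with Cy3, against that of a mock-treated plant of the same genotype and time, labelled with Cy5, with 25 µg of total RNA per sample. Genotype and time made 9 groups, of 4 arrays in resistant plants and of 3 in the others. On 2 arrays of resistant plants the titles were followed although the TMV protocol gave another time: replicate 4 of the 9 h group (3 h in the protocol) and replicate 4 of the 27 h group (9 h in the protocol).

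The values are deposited log2 ratios of the 2 channels, so that 1 unit is a 2-fold difference. Whether TMV or mock is on top of the ratio is not stated in the labels, and the dyes were never swapped. Signs stay as deposited and say nothing of whether a transcript was more abundant after TMV or after mock treatment. A dye effect of a clone is part of each group's value and cancels in differences between genotypes or times. In whole leaves, fewer cells of a type and less RNA per cell cannot be told apart. None of the 430 gene identifiers of the array (0 matched) was in the tomato gene table used here, so the roles given are those of the symbols.

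Arrays gave values for 2173 to 9511 clones, and within an array the log2 ratios had an SD of 0.219 to 1.35 with a median of 0.361. A difference of 2-fold or more was found for 40.1% of the 2635 clones of sun1-1 3 h replicate 3 and for 12.5% of those of sun1-1 27 h replicate 1, the widest arrays, against a median of 1.57%. Of the 36 pairs of arrays of the same group, 14 had a correlation below 0, and 20 of all 435 pairs had one below -0.3, down to -0.571. Because the numerator is not stated, that all arrays run the same way was assumed and not shown. The leaf genes PSBR and THF1, which code for chloroplast proteins, had a value on 30 and 29 arrays. Such a value shows that the clone gave a ratio and not how abundant the transcript was.

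METK1 had a value on all 30 arrays, from a low of -0.55 to a high of 0.68. Its mean over the arrays was 0.05 (SD 0.33, n = 30), and 16 of the 30 arrays were positive. In sun1-1 plants METK1 was -0.24 ± 0.28 at 3 h, -0.10 ± 0.36 at 9 h and 0.45 ± 0.20 at 27 h (mean log2 ratio ± SD, n = 3 each). In resistant plants it was 0.24 ± 0.22, -0.10 ± 0.11 and 0.02 ± 0.41 at the same times (n = 4 each). In susceptible plants it was 0.11 ± 0.34, 0.21 ± 0.33 and -0.17 ± 0.37 (n = 3 each).

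By array, METK1 in sun1-1 leaves was 0.01, -0.19 and -0.55 at 3 h, -0.34, 0.32 and -0.26 at 9 h, and 0.68, 0.37 and 0.30 at 27 h. The 27 h arrays all lay above the 3 h arrays, and the 9 h arrays spanned the gap between them. The share of features with such a separation between times was not counted, so it is not read as a trait of METK1. In resistant leaves it was 0.52, 0.21, 0.24 and -0.02 at 3 h, -0.08, -0.09, -0.24 and 0.02 at 9 h, and -0.51, 0.04, 0.04 and 0.50 at 27 h. The 9 h arrays were the closest to each other of any METK1 group, and the 27 h arrays ran to both sides of 0 with replicate 4, whose TMV protocol names another time, at the top. In susceptible leaves it was -0.14, -0.03 and 0.49 at 3 h, 0.57, -0.08 and 0.15 at 9 h, and 0.19, -0.14 and -0.55 at 27 h. All 3 susceptible groups held arrays of both signs. The sun1-1 27 h group was the only METK1 group with all its arrays on 1 side of 0, which 37.1% of the 7390 features tested in that group also had.

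**Figure D1:**
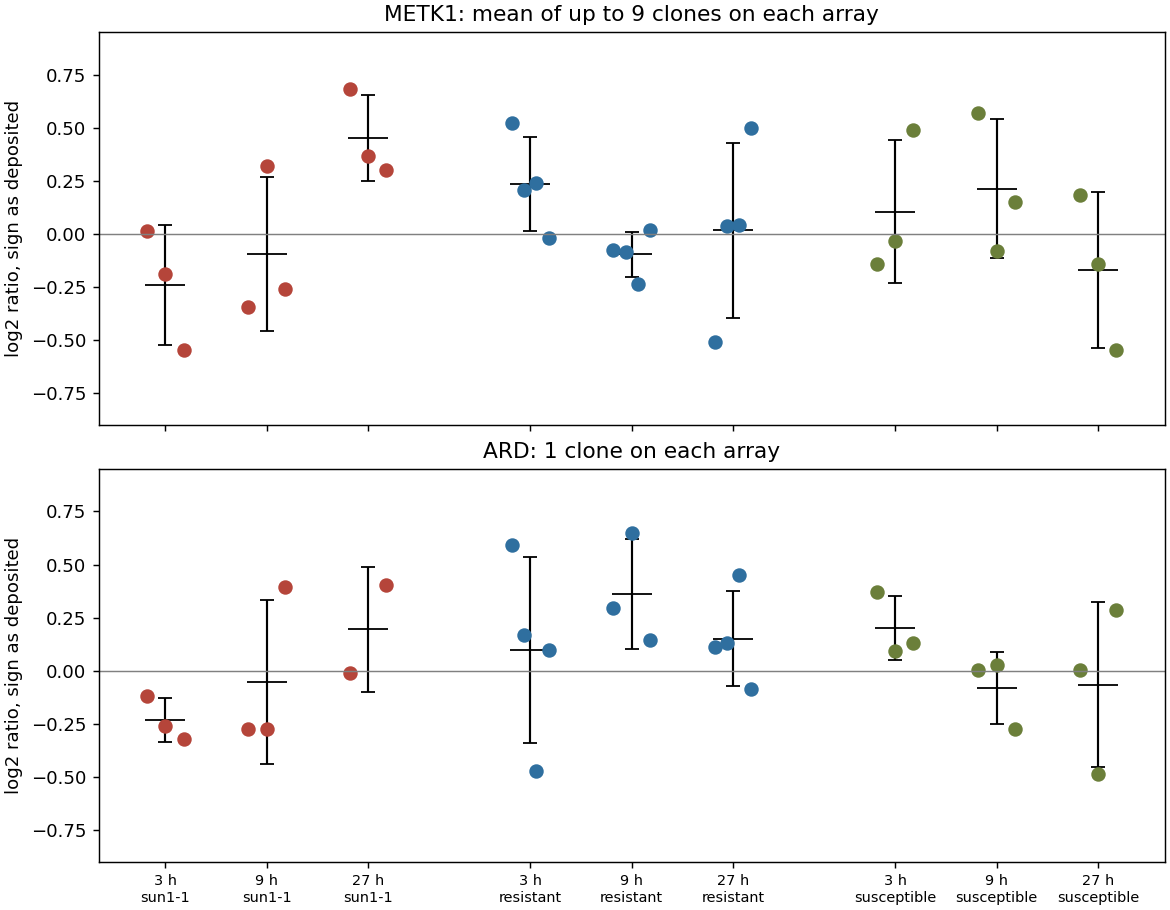
Log2 ratio (sign as deposited) of METK1, the mean of up to 9 clones, and of ARD, 1 clone, on each array (points), by genotype and time; bars give the mean ± SD of a group. METK1 was highest at 27 h in sun1-1 leaves (mean 0.45), and ARD was below 0 on every sun1-1 array at 3 h and above 0 on every resistant array with a value at 9 h.

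ARD, the salvage enzyme, had a value on 28 arrays, with none on sun1-1 27 h replicate 2 and resistant 9 h replicate 4. It ran from -0.48 to 0.65, with a mean of 0.06 (SD 0.30, n = 28). Positive values were found on 2 of 8 sun1-1 arrays, 9 of 11 resistant arrays and 7 of 9 susceptible arrays. Among the susceptible ones were 0.0050 and 0.0265 at 9 h and 0.0035 at 27 h, each the mean of 2 spots of opposite sign. The share of all features with such counts was not taken, so the counts are not read as a difference between genotypes. In sun1-1 leaves ARD was -0.12, -0.26 and -0.32 at 3 h, -0.28, -0.28 and 0.40 at 9 h, and -0.01 and 0.40 at 27 h. The 3 arrays at 3 h were all negative and close together, with a mean of -0.23 ± 0.10 (SD, n = 3), whereas the means at 9 h (-0.05 ± 0.39, n = 3) and at 27 h (0.20 ± 0.29, n = 2) rested on arrays of both signs.

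In resistant leaves ARD was 0.59, 0.17, -0.47 and 0.10 at 3 h, 0.29, 0.65 and 0.14 at 9 h, and 0.11, 0.13, 0.45 and -0.09 at 27 h. The means were 0.10 ± 0.44 (n = 4), 0.36 ± 0.26 (n = 3) and 0.15 ± 0.22 (SD, n = 4), and only the 9 h group held arrays of 1 sign. In susceptible leaves ARD was 0.37, 0.10 and 0.13 at 3 h, 0.01, 0.03 and -0.28 at 9 h, and 0.00, -0.48 and 0.28 at 27 h. The means were 0.20 ± 0.15, -0.08 ± 0.17 and -0.07 ± 0.39 (SD, n = 3 each), with all 3 arrays positive at 3 h. A group with all arrays on 1 side of 0 was common: 44.1% of features in sun1-1 at 3 h, 30.6% in resistant at 9 h and 38.9% in susceptible leaves at 3 h.

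The 9 METK1 clones allow the gene value to be examined by clone. Clones 7 and 8 had a value on 30 arrays, clones 2, 3, 4, 5 and 9 on 29 and clones 1 and 6 on 28, and all 9 were measured together on 24 arrays. The SD over the clones of an array had a median of 0.190 and ran from 0.0991 to 1.09. All measured clones had 1 sign on 12 arrays, positive on 7 and negative on 5.

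Over the arrays, the 36 pairs of METK1 clones correlated at r = -0.14 to 0.92, with a median of 0.70. The 21 pairs among clones 2, 3, 4, 6, 7, 8 and 9 ran from 0.52 to 0.92 with a median of 0.84. The 15 pairs that hold clone 1 or clone 5 ran from -0.14 to 0.50 with a median of 0.27. Without the 2 widest arrays, the median of these 15 pairs was 0.51 and that of the 21 others was 0.86. These correlations describe clones that share the RNA, the array and its spread, and clones 1 and 5 were singled out after their values were seen.

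**Figure D2:**
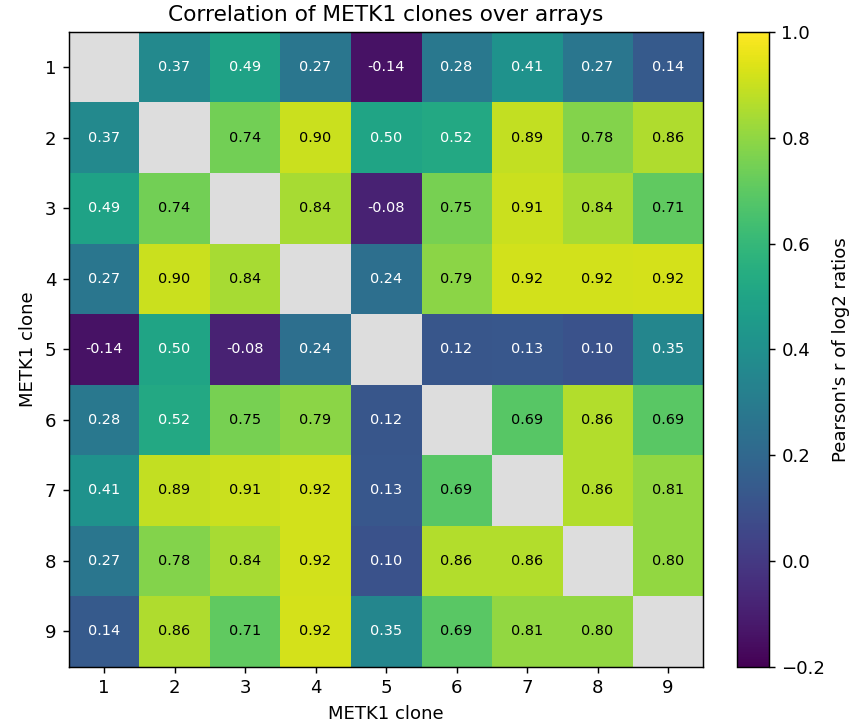
Pearson's r of the log2 ratios of each pair of METK1 clones over the arrays both have; colour and number give r. Clones 1 and 5 have r of 0.50 or less with every other clone, and the 7 other clones have r of 0.52 or more with each other.

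The wide spread between clones was largest on the 2 widest arrays. On sun1-1 3 h replicate 3, clone 1 was -2.64, from a single spot, and clone 3 was -1.33, whereas clone 5 was 1.08. On sun1-1 27 h replicate 1, clone 1 was -0.71 and clone 5 was -0.34, whereas clones 3 and 8 were 1.42 and 1.36. Without these arrays the largest SD over clones on an array was 0.315. The 2 spots of a clone differed by a median of 0.088 over the 278 spot pairs of METK1 and ARD, and by up to 1.56.

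**Figure D3:**
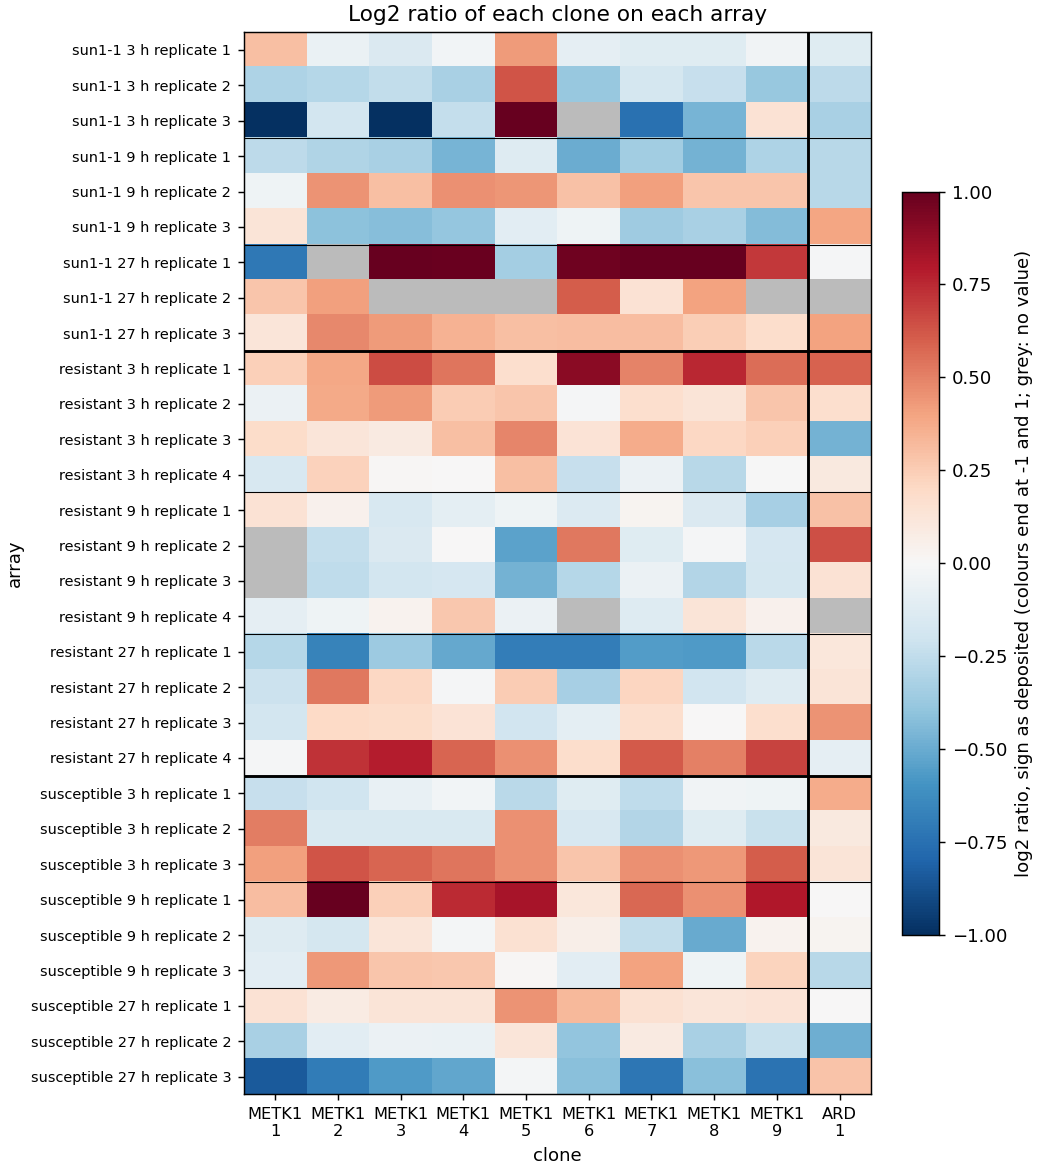
Log2 ratio (colour, sign as deposited, colours end at -1 and 1) of the 9 METK1 clones and the ARD clone (columns) on each of the 30 arrays (rows); grey marks no value. The METK1 clones share a sign on 12 of 30 arrays, and clones 1 and 5 are seen to part from the others on sun1-1 27 h replicate 1.

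By group, 7 of the 9 clones had a positive mean in sun1-1 leaves at 27 h, from -0.11 for clone 1 to 0.93 for clone 3. In resistant leaves at 3 h all 9 clone means were positive, from 0.05 to 0.31. In sun1-1 leaves at 3 h, 1 of 9 was positive: clone 5, at 0.71, against a median clone mean of -0.23 and a lowest of -0.88 for clone 1. The clones share the arrays of a group and are not replicates, so these counts of clones are not support for a response in any group. Leaving clones 1 and 5 out of the gene value, a choice made after seeing the data, gave METK1 a mean of 0.60 ± 0.42 in sun1-1 leaves at 27 h (SD, n = 3), against 0.45 with all clones, while clones 1 and 5 alone averaged -0.01 ± 0.45 there.

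At 3 h clone 5 had the highest mean of the 9 clones in sun1-1 leaves (0.71) and in resistant leaves (0.31, beside 0.29 for clone 3), and in susceptible leaves its mean of 0.22 lay beside 0.23 for clone 1. Over the genotypes it was positive on 9 of 10 arrays, from -0.27 to 1.08 with a median of 0.44, and lay above the mean of the 8 other clones on 7 of 10. The 8 other clones averaged 0.01 ± 0.39 on those arrays (SD, n = 10), against 0.40 ± 0.34 for clone 5, a gap of 0.39. Without sun1-1 3 h replicate 3, the widest array, clone 5 averaged 0.33 and the others 0.09, a gap of 0.23. In the fit to single clones the mean of the 3 genotypes at 3 h was 0.41 for clone 5 (SE 0.11), with a limma p of 0.0010, and 0.0926 after Benjamini-Hochberg adjustment over 5635 clones. An unadjusted p under 0.05 was found for 17.0% of those clones, and for 1 of the 9 METK1 clones. Clone 5 was singled out after its values were seen, so its p does not test a choice made beforehand. The mean of the 3 genotypes for clone 5 was 0.039 at 9 h and 0.040 at 27 h.

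TMV against mock was tested in each group with limma, with 1 spread shared by the 9 groups and Benjamini-Hochberg adjustment over all features. Neither gene passed an adjusted p of 0.05 in any of the 9 groups, where 0% of the features tested passed. METK1 came nearest in sun1-1 leaves at 27 h, at 0.45 (SE 0.18, 95% interval 0.09 to 0.81), with an unadjusted limma p of 0.0170 and an adjusted p of 0.431. An unadjusted p that small was given to 3.94% of the 7390 features, and 9.09% had one under 0.05. Without sun1-1 27 h replicate 1, the wide array, the mean was 0.34 with a limma adjusted p of 0.999, and over the alternative settings the adjusted p ran from 0.145 to 0.999.

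For ARD the smallest p was that of resistant leaves at 9 h, at 0.36 (SE 0.17, 95% interval 0.00 to 0.72), with an unadjusted limma p of 0.0498 and an adjusted p of 0.794. In that group 6.28% of the 5386 features had an unadjusted p under 0.05. Without replicate 2, which had the largest value, the mean was 0.22. In sun1-1 leaves at 3 h ARD was -0.23 (SE 0.18, limma adjusted p = 0.823), and METK1 was -0.24 (SE 0.18, limma adjusted p = 0.808). Without the wide replicate 3, METK1 in that group was -0.09.

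Averaged over the 3 genotypes, METK1 was 0.03 at 3 h, 0.01 at 9 h and 0.10 at 27 h, each with an SE of 0.10. ARD was 0.02, 0.08 and 0.09 at those times, with SEs of 0.10, 0.10 and 0.11. The limma adjusted p was 0.809 or more in these 6 tests, while 0.0933% of the 5357 features (5 of them) passed at 3 h and 0 passed at 9 h and 27 h. Each of these 6 averages held group means of both signs.

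Between genotypes, where dye effects cancel, METK1 differed most at 27 h. It was 0.68, 0.37 and 0.30 in sun1-1 leaves and 0.19, -0.14 and -0.55 in susceptible leaves, and the groups did not overlap, as was the case for 20.9% of the 5841 features tested. The difference, sun1-1 minus susceptible, was 0.62 (SE 0.25, 95% interval 0.11 to 1.13), with an unadjusted limma p of 0.0200 and an adjusted p of 0.319. An unadjusted p under 0.05 was found for 12.1% of the features in this comparison, and a p as small as that of METK1 for 6.28%. The difference was 0.50 without sun1-1 replicate 1 and 0.43 without susceptible replicate 3, and the adjusted p ran from 0.233 to 0.628 over the alternatives.

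By clone, sun1-1 minus susceptible at 27 h was positive for 8 of 9 METK1 clones, from -0.20 for clone 5 to 1.09 for clone 3. An unadjusted limma p under 0.05 was found for 6 of the 9 clones, against 12.3% of the 6126 clones tested, and 0 passed after adjustment, where the lowest adjusted p was 0.189 (clone 3). The clones come from the same arrays, 5 or 6 for each clone, and are not replicates of the genotypes. The count of clones is therefore not support for a difference between plants. Sun1-1 27 h replicate 2 gave a value for 5 of the 9 clones. Clone 3 had none there and rests on 2 sun1-1 arrays, at 1.42 on the wide replicate 1 and 0.43 on replicate 3.

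Set against resistant leaves, METK1 in sun1-1 leaves had a lower mean at 3 h and a higher one at 27 h, and neither difference passed the test. In these comparisons 0% of the features passed. Sun1-1 minus resistant was -0.48 at 3 h (SE 0.23, 95% interval -0.96 to 0.00) with an unadjusted limma p of 0.0514 and an adjusted p of 0.761, and 6.44% of the 5404 features had an unadjusted p under 0.05. At 9 h it was 0.00 (95% interval -0.48 to 0.48). At 27 h it was 0.43 (95% interval -0.05 to 0.91), with an unadjusted limma p of 0.0752 and an adjusted p of 0.909. The ranges overlapped at all 3 times. Without the wide sun1-1 3 h replicate 3, the 3 h difference was -0.32. Without resistant 27 h replicate 1, which had the lowest value of its group, the 27 h difference was 0.26. Without resistant 27 h replicate 4, whose TMV protocol names another time, it was 0.59 (limma adjusted p = 0.988).

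Resistant minus susceptible for METK1 was 0.13, -0.31 and 0.19 at 3, 9 and 27 h, with an SE of 0.23 each and limma adjusted p of 1, 0.821 and 0.949. Sun1-1 minus susceptible was -0.35 at 3 h and -0.31 at 9 h, with an SE of 0.25 each and limma adjusted p of 0.998 and 0.956. The 95% intervals of these 5 differences reached from -0.86 to 0.67. Leaving out each array in turn, sun1-1 minus susceptible ran from -0.47 to -0.16 at 3 h and from -0.52 to -0.13 at 9 h, and resistant minus susceptible from 0.0080 to 0.32 at 3 h and from -0.46 to -0.13 at 9 h.

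ARD in sun1-1 leaves at 3 h was -0.12, -0.26 and -0.32, against 0.37, 0.10 and 0.13 in susceptible leaves. Every sun1-1 array was negative and every susceptible array positive, and 18.6% of the 6524 features had ranges that did not overlap in this comparison. The ARD values of sun1-1 replicates 1 and 3 each came from a single spot, and replicate 3 was the widest array. In susceptible replicate 3 the 2 spots had opposite signs, at 0.32 and -0.06. The difference was -0.43 (SE 0.25, 95% interval -0.94 to 0.08), with an unadjusted limma p of 0.0929 and an adjusted p of 0.941. At 9 h ARD was 0.29, 0.65 and 0.14 in resistant leaves, against 0.01, 0.03 and -0.28 in susceptible leaves. These ranges did not overlap either, nor did those of 19.3% of the 5196 features, and the difference was 0.44 (SE 0.25, 95% interval -0.07 to 0.95, limma adjusted p = 0.750).

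The other ARD differences were -0.33, -0.41 and 0.04 for sun1-1 minus resistant at 3, 9 and 27 h, and 0.03 and 0.26 for sun1-1 minus susceptible at 9 and 27 h. Resistant minus susceptible was -0.10 at 3 h and 0.22 at 27 h. The limma adjusted p of these 7 differences was 0.753 or more, and all 9 ARD differences had a 95% interval that held 0. Leaving out each array in turn, sun1-1 minus resistant ran from -0.52 to -0.16 at 3 h and from -0.64 to -0.27 at 9 h. At 27 h, leaving out susceptible replicate 2, the lowest ARD value of all arrays, gave 0.05 for sun1-1 minus susceptible and 0.0068 for resistant minus susceptible. The sun1-1 27 h value of ARD rests on 2 arrays and the resistant 9 h value on 3.

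**Figure D4:**
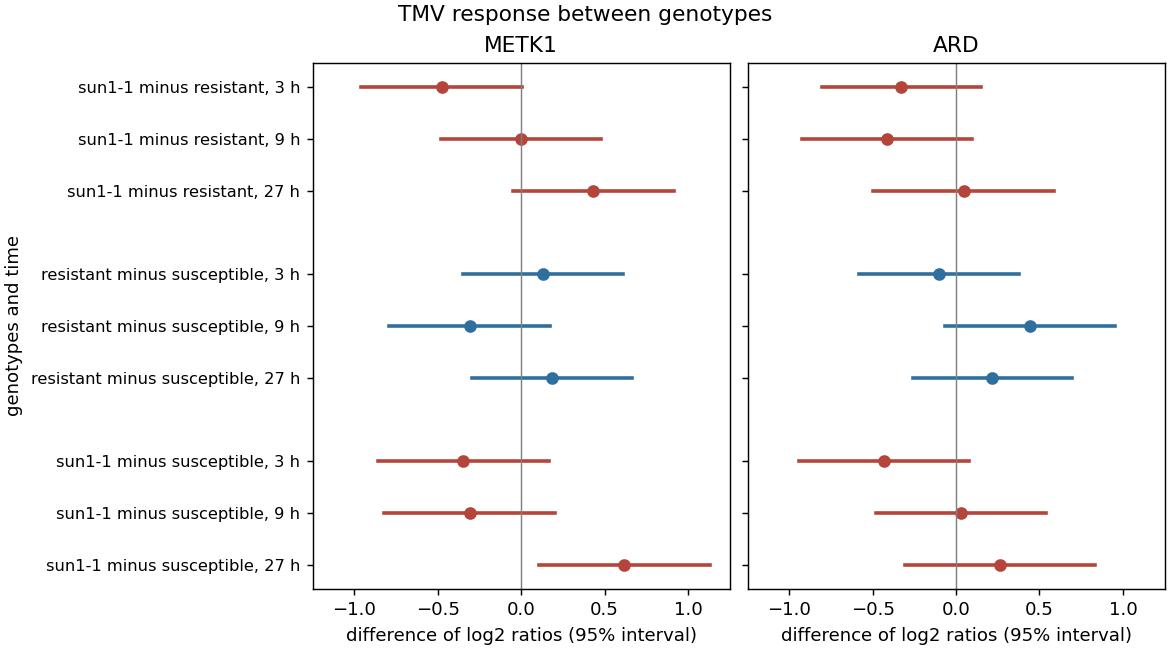
Difference of the mean log2 ratio between genotypes at each time for METK1 (left) and ARD (right), with its 95% interval from limma. The METK1 interval of sun1-1 minus susceptible at 27 h (0.11 to 1.13) lies above 0 before adjustment over features, and every other interval holds 0.

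Over time, METK1 in sun1-1 leaves had a limma F of 4.25, with an unadjusted p of 0.0251 and an adjusted p of 0.626, and 7.38% of the 5989 features had an unadjusted p under 0.05. The F was 2.22 without sun1-1 27 h replicate 1 and 3.05 without sun1-1 3 h replicate 3, the 2 widest arrays. By clone, 6 of the 9 METK1 clones had an unadjusted limma p under 0.05 for change over time in sun1-1 leaves. Such a p was found for 7.73% of the 6262 clones, and 0 METK1 clones had an adjusted p under 0.05. The METK1 clones share arrays and are not replicates, so their count is not support for a change over time. In resistant and susceptible leaves METK1 had an F of 1.21 and 1.24 (limma adjusted p = 0.802 and 0.966). For ARD the F was 1.2 in sun1-1, 0.70 in resistant and 0.82 in susceptible leaves, with limma adjusted p of 0.814 to 0.982.

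In order of their means, the METK1 groups ran from sun1-1 27 h at the top through resistant 3 h, susceptible 9 h, susceptible 3 h, resistant 27 h, resistant 9 h, sun1-1 9 h and susceptible 27 h to sun1-1 3 h. The ARD groups ran from resistant 9 h through susceptible 3 h, sun1-1 27 h, resistant 27 h, resistant 3 h, sun1-1 9 h, susceptible 27 h and susceptible 9 h to sun1-1 3 h. For both genes all 8 pairs of neighbours in the order differed by less than the larger SD of the pair and had overlapping ranges. Both genes had their lowest mean in sun1-1 leaves at 3 h, and their highest in different groups. For METK1 the lowest place rested on the wide sun1-1 3 h replicate 3. Without that array the METK1 mean there was -0.09, above that of susceptible leaves at 27 h (-0.17). The ARD mean was -0.19 without it, still below the other ARD groups.

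The enzymes of synthesis and of salvage were then set against each other. Over the 28 arrays with both, METK1 and ARD had r = 0.04 (permutation p = 0.859) and Spearman's rho = -0.01 (permutation p = 0.964). Without the 2 arrays farthest from the median of METK1, r was 0.08. Within genotypes r was 0.28 over 8 sun1-1 arrays (permutation p = 0.495). It was -0.08 over 11 resistant arrays (permutation p = 0.820) and -0.17 over 9 susceptible arrays (permutation p = 0.657). Adjusted over these 4 relations, each p of r was 0.859. Without the 2 arrays farthest from the median of METK1 in a genotype, r was 0.15 in sun1-1, -0.55 in resistant and -0.42 in susceptible leaves, so that the values within genotypes rest on few arrays.

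**Figure D5:**
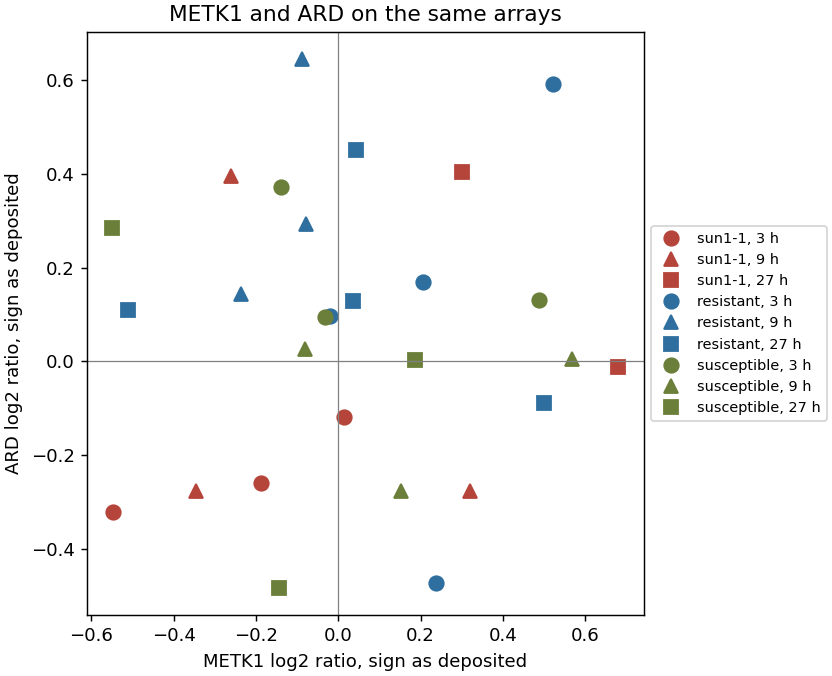
Log2 ratio of ARD against that of METK1 on the 28 arrays with both (points; colour gives the genotype, shape the time). The points lie on both sides of 0 for both genes (r = 0.04), and the 3 sun1-1 arrays at 3 h lie below 0 for ARD.

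The genes whose log2 ratios followed METK1 most closely were LOC102577658 (r = 0.84 over 30 arrays), LOC102577639 (r = 0.70 over 28) and LOC102594540 (r = 0.69 over 25), among 334 genes with a symbol and 20 or more shared arrays. Without the 2 widest arrays these values were 0.80, 0.65 and 0.77. LOC102577433 ran most opposite, at r = -0.66 over 30 arrays. The median over the 334 genes was 0.05, and ARD was at place 170. For ARD the closest were LOC102577699 (r = 0.77 over 27 arrays), LOC102577779 (r = 0.67 over 28) and LOC102577927 (r = 0.64 over 27) of 327 genes, and the most opposite was DHAR2, a dehydroascorbate reductase, at r = -0.59 over 28 arrays. METK1 was at place 139 for ARD. The LOC symbols carry no gene name in the sources used here, and the correlations are descriptions over arrays that share dyes and array spread.

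Of 54 symbols listed for methionine, S-adenosylmethionine, ethylene and polyamine metabolism, 3 besides METK1 and ARD were on the array. They were MS, listed for methionine synthase, CBL, listed for cystathionine beta-lyase, and ERS, listed for an ethylene receptor, and the array's annotation does not spell them out. In 48 tests of MS and ERS, 0 had an adjusted limma p under 0.05 in either direction, the lowest being 0.236, and 2 had an unadjusted p under 0.05, both of ERS at 3 h (in sun1-1 leaves, where 10.8% of features had one, and for the mean of the 3 genotypes, where 16.9% had one). MS, with a value on 30 arrays, had group means of -0.10 to 0.05. CBL had a value on 3 arrays and could not be tested.

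ERS was 0.08, 0.35 and 1.71 in sun1-1 leaves at 3 h, with a mean of 0.71 (SE 0.26, limma adjusted p = 0.289). The highest of these was the wide replicate 3, and the other 2 arrays averaged 0.21. The mean of ERS over the 3 genotypes at 3 h was 0.38 (SE 0.16, limma adjusted p = 0.236), and 0.21 without that array. At the other times its group means ran from -0.10 in sun1-1 leaves at 9 h to 0.29 in resistant leaves at 9 h, against 0.29 in resistant and 0.12 in susceptible leaves at 3 h. Enzymes that make ethylene or polyamines from S-adenosylmethionine, such as the synthase and the oxidase of aminocyclopropane carboxylate, were listed but matched no symbol and were not analysed here.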

How the data were processed

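Each array's table, as deposited by the authors, gives a log2 ratio of its channels per spot. Limma is named, with no version, in the submitters' processing notes. For background correction, normalization and filter, the sources used here give nothing. The log base was tested: decreases of 2-fold or more (5154) all (100%) fell on log2 of ratios with 2 decimals. In sun1-1 27 h replicate 2 the values stood 1 row off (mean absolute correlation with the other arrays 0.0115 as deposited and 0.172 after the move) and were moved back; the 29 other columns were used as deposited. At least 1 array gave a value for 12590 of the 15360 clones.

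Duplicate spots were averaged, then clones with the same single symbol. Clones with no symbol or several were kept as features of their own. A model with 9 group means was fitted to every feature by least squares, with moderated tests by limma 3.58.1 in R 4.3.3, in 24 comparisons, with Benjamini-Hochberg adjustment over the features with at least 2 arrays in every group compared and a threshold of 0.05. The code was tested on simulated data. Per the labels an RNA sample was leaf tissue of 1 plant, so p values measure the spread between plants and arrays. The number of arrays and the empty values limit the precision.

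The genes, the lists and the rules were chosen with earlier results of these data known. The genes named are METK1, ARD, the listed pathway genes on the array, and the 3 genes most like and the 1 least like each by correlation. Alternatives were centring or scaling arrays, weights by array quality, a block for the replicate number, the median over clones, single clones, features on at least 20 arrays, the displaced column as deposited, and leaving out each array. METK1 without clones 1 and 5 was added after seeing the data.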

Additional observations from a re-analysis of the deposited data

Results flagged for a closer look

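In the 3 h leaves ARD was negative on every sun1-1 array and positive on every susceptible array, a difference of -0.43 on the log2 scale (sun1-1 minus susceptible) with a limma adjusted p of 0.941. Of the 6524 features in that comparison, 18.6% had ranges that did not overlap. The ARD values of sun1-1 3 h replicates 1 and 3 each came from a single spot. Of the 5 groups of METK1 and ARD with 4 arrays, 0 held an array far from the others by Dixon's criterion.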

How the results depend on the processing

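The 48 results on METK1 and ARD had 674 values under the alternatives. Of these, 0 passed an adjusted p of 0.05 and 637 were unchanged. Unchanged means the same direction, or for the F tests over time, which have no direction, the same side of the threshold. The 37 others turned direction, in 17 results, none of which had a value over 0.186 in size. The cause was not tested. With quality weights ARD was -0.00126 for the mean of the genotypes at 3 h and -0.00692 at 9 h, and -0.031 for sun1-1 minus susceptible at 9 h, which was -0.018 with arrays scaled. With the replicate number as a block ARD was -0.00528 for the mean at 3 h and -0.020 for sun1-1 minus resistant at 27 h. The block moved no count of calls except that of the mean at 27 h, to 1, and the numbers were not shown to pair arrays: 11 of 27 same-numbered pairs had a correlation of deviations over 0.1. METK1, sun1-1 minus resistant at 9 h, was 0.042 with arrays scaled, 0.079 with weights and 0.038 with the block. With 1 clone of most values, clone 7, in place of the gene value, METK1 was -0.031 in susceptible leaves at 3 h and -0.044 for the mean at 3 h. Clone 8, also on 30 arrays, gave 0.093 and 0.0075. Of the 9 clones, 7 were positive in susceptible leaves at 3 h and 5 for the mean at 3 h.

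Leaving out each array gave these ranges for ARD: resistant 3 h -0.068 to 0.29, sun1-1 9 h -0.28 to 0.059, susceptible 27 h -0.24 to 0.14, susceptible 9 h -0.14 to 0.016, the mean at 3 h -0.034 to 0.084, resistant minus susceptible at 3 h -0.27 to 0.087, sun1-1 minus resistant at 27 h -0.035 to 0.15 and sun1-1 minus susceptible at 9 h -0.19 to 0.14. For METK1 they were: resistant 27 h -0.14 to 0.19, sun1-1 9 h -0.30 to 0.029, susceptible 27 h -0.35 to 0.021, susceptible 3 h -0.086 to 0.23, the mean at 3 h -0.030 to 0.085, the mean at 9 h -0.062 to 0.056, resistant minus susceptible at 27 h -0.0044 to 0.36 and sun1-1 minus resistant at 9 h -0.21 to 0.12. Leaving out sun1-1 27 h replicate 1 or 3 gave no value of ARD in that group.

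The number of features with an adjusted p under 0.05 depended more on the setting. For the mean at 3 h it was 5, against 54 with arrays scaled, 352 with weights and 0 to 235 leaving out an array. With weights it was 134 in sun1-1 27 h, 251 in susceptible 3 h, 5 for the change over time in sun1-1, 4 in sun1-1 3 h, 1 in resistant 3 h, 1 for the mean at 27 h and 1 for sun1-1 minus susceptible at 27 h (0 each in the fit reported). With arrays scaled it was 1 in resistant 3 h, 1 in sun1-1 3 h and 5 in susceptible 3 h, and with single clones 2 for the mean at 27 h. Leaving out an array gave 0 to 501 in sun1-1 3 h, 0 to 1 in resistant 3 h, 0 to 2 in sun1-1 27 h, 0 to 3 in susceptible 27 h, 0 to 2 for the change in susceptible leaves, 0 to 1 for the mean at 27 h and 0 to 3 for sun1-1 minus susceptible at 27 h.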
